A study of Schizosaccharomyces pombe with 78 samples.

Results

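The RNAs described here are 20 fission yeast noncoding RNAs with a fitted wave in the cell cycle time course of the Nrm1 strain, peaking outside 30 to 90 min. They were chosen by a rule from the Nrm1 time course: a systematic ID of the SPNCRNA series, a mean of at least 30 normalised counts over the 78 libraries, a fitted peak-to-trough difference of at least 1 on the log2(normalised count + 1) scale, and a peak time, taken modulo the period of 120 min, below 30 min or at or after 90 min. Of 12683 rows in the table, 7212 were noncoding RNAs of this series, 1068 of these had a mean of at least 30, and 120 of those had a wave of the required size. The other 100 peaked at 30 to 90 min. Because the Nrm1 time course chose the members, its values are given as a description with no test. The waves and differences tested came from libraries that the amplitude and phase criteria did not use. Between asynchronous cultures, mutants were set against Nrm1 libraries outside the time course. The Nrm1 time course did enter the shared estimate of the spread on which the limma p-values rest. All 78 libraries entered the mean, mutants included.

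The 3 strains compared were all *cdc25-22*, a temperature-sensitive allele of the phosphatase that starts mitosis. The Nrm1 strain (*nrm1-HA*) carried tagged wild-type Nrm1, the co-repressor of the G1/S transcription factor MBF. The Nrm1-SA strain (*nrm1-SA-HA*) carried tagged Nrm1 with 11 phosphorylation sites changed to alanine, and the Nrm1-SD strain (*nrm1-SD-HA*) the same sites changed to acidic residues (aspartate or glutamate). Cultures in EMM (minimal medium) were sampled growing asynchronously at 25 °C, or held at 36 °C for 4 h, released at 25 °C and sampled every 20 min from 0 to 220 min. Each of the 39 conditions had 2 libraries from biological duplicates, made from polyadenylated RNA with a directional kit.

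Much of the fission yeast genome outside coding genes is transcribed into long noncoding RNAs, many of which lie antisense to a coding gene. Most are kept at low levels by the nuclear exosome and by RNA interference, and many accumulate in stress, stationary phase or meiosis. In the mitotic cycle, waves of coding transcription follow each other: forkhead genes in mitosis, septation genes after it, MBF genes at G1/S and histone genes in S phase. The timing of the noncoding RNAs below is given beside those waves.

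Depth ranged from 2685381 to 10469416 reads assigned to features, with a median of 5818955. The pair of Nrm1-SA libraries at 140 min had a chi-square per degree of freedom of 0.392, below what sampling noise alone gives, whereas the other 38 pairs lay between 1.88 and 18.2. That pair was counted as 1 sample, and 77 libraries entered the tests. The pair at 18.2 was Nrm1-SD at 220 min, so the calls of waves are also given without 220 min. The *nrm1* gene, mutated but not deleted, was present in all strains, with 458 and 517 normalised counts in asynchronous Nrm1, 366 and 491 in Nrm1-SA, and 538 and 474 in Nrm1-SD. In bulk RNA, a change in the share of cells at a given stage and a change in RNA per cell cannot be told apart.

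The members were spread over the genome, with 10 on chromosome I, 9 on chromosome II and 1 on chromosome III, and were 426 to 3973 bases long. In the ASM294v3 annotation, 14 of them lay on the opposite strand of at least 1 protein-coding gene. Among these were SPNCRNA.1302, whose 1232 bases (chrII:58453-59684) all lay antisense to *eno102*, an enolase gene of glycolysis, and SPNCRNA.3808 (chrI:4053077-4054599), antisense to the histone H2A gene *hta2* and the RNA-binding protein gene *rsd1*. SPNCRNA.1318 (chrII:154521-156642) lay antisense to *mal1*, a maltase gene, and *ght4*, a hexose transporter gene, and SPNCRNA.1271 (chrIII:2204097-2205588) lay antisense to *ckk2*, a calmodulin-dependent protein kinase kinase gene. SPNCRNA.133 (chrII:527043-528366) lay wholly within *fhn1*, an eisosome gene, on the same strand, and SPNCRNA.1367 (chrII:523271-525609) overlapped *fhn1* by 96 bases. One member, SPNCRNA.19, has a gene symbol in that annotation, *prl19*. The kit kept strand, but the strand and overlap settings of the counting are not given in the sources used here, so reads of a member and of a gene that overlaps it may not be fully separated.

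The start sites of the members were searched for the elements of the known cell cycle waves, in 300-base windows from 250 bases before to 50 bases after each annotated start, on both strands. The MCB element ACGCGT, which MBF binds, was in 1 of the 20 windows (SPNCRNA.1302, 96 bases before the start) against 2.46% of 12601 windows of the same length, and its core ACGCG was in 2 against 9.86%. The forkhead element GTAAACA was in 3 (13.0% of all windows), the element GATGTT (PCB) in 3 (17.5%), the histone gene element AACCCT in 1 (9.19%) and the heat shock element GAANNTTC in 2 (11.9%). The core of the stress element bound by Atf1, TGACGT, was in 3, those of SPNCRNA.570, SPNCRNA.1344 and SPNCRNA.995, against 5.49%. The core of the MCB element overlaps the whole element, and such matches describe the letters only. Start-site sequences are shown for 4 members to which later results refer, leaving out bases in the untranslated part of a coding gene, with the matches to these elements in capitals (RefSeq, ASM294v3, 5′ to 3′ on the strand of the member): SPNCRNA.1302 at chrII:58324-58502, plus strand, SPNCRNA.570 at chrII:1297474-1297675, SPNCRNA.995 at chrI:4532437-4532736 and SPNCRNA.4043 at chrI:4527786-4528085, all 3 on the minus strand.
SPNCRNA.1302: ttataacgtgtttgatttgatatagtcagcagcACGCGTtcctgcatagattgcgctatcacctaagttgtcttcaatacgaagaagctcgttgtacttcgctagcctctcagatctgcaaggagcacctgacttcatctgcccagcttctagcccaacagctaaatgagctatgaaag
SPNCRNA.570: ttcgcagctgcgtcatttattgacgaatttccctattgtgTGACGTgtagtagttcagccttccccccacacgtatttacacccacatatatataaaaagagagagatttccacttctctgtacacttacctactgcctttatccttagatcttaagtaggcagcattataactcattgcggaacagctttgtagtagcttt
SPNCRNA.995: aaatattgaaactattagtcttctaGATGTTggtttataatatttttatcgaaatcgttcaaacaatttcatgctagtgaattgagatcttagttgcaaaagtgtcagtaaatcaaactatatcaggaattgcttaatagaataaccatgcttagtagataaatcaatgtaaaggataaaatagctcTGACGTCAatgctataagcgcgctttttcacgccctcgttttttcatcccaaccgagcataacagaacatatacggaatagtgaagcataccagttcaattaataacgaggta
SPNCRNA.4043: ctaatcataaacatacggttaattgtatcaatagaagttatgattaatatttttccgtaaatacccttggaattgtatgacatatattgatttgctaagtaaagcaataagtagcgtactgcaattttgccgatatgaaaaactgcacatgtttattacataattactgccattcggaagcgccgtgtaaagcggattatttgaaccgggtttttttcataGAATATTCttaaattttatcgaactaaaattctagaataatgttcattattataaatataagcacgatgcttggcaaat

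One of these RNAs, SPNCRNA.4043 (chrI:4526199-4527835), had near-identical copies. Its longest copy, 1412 aligned bases at 98.51% identity with 21 differences or gaps, lay at SPAC27D7.09c, a gene of the But2 family, and another lay at SPAC27D7.11c of the same family. Of its stretches of 75 bases, the length of a read, 96.7% were found elsewhere in the genome, against 49.2% for SPNCRNA.863, 13.2% for SPNCRNA.3779 and 0.0% for the other 17. The 100 bases of the alignment with the most differences, at chrI:4526608-4526707 and chrI:4523571-4523670 (both minus strand), are shown with the 14 differing bases in capitals, since only such stretches separate reads of the 2 loci.
SPNCRNA.4043: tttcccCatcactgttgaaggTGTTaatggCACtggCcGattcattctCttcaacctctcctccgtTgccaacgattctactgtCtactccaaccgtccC
copy at SPAC27D7.09c: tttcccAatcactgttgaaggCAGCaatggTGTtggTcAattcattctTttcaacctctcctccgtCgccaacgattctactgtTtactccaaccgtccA
SPNCRNA.863 shared 535 bases at 99.81% identity with *Tf2-1*, a retrotransposon, and had 85 matches of at least 150 bases, so the counts of both RNAs are uncertain.

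In Nrm1, 12 of the 20 members had a fitted peak from 90 to 120 min and 8 from 0 to 30 min, which is the end of one cycle and the start of the next. The histone genes, markers of S phase, had a median peak time of 90.5 min in Nrm1, the septation genes 74.8 min, the MBF targets 65.3 min and the mitotic genes 58.0 min. The fitted peak-to-trough difference ran from 1.01 for SPNCRNA.995 to 2.14 for SPNCRNA.4043, with a median of 1.13. The largest after SPNCRNA.4043 were 1.91 for SPNCRNA.133, 1.87 for SPNCRNA.3808, 1.78 for SPNCRNA.1367, 1.55 for SPNCRNA.1318, 1.46 for SPNCRNA.570, 1.34 for SPNCRNA.19, 1.26 for SPNCRNA.1302, 1.2 for SPNCRNA.1344 and 1.13 for SPNCRNA.866.

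**Figure D1:**
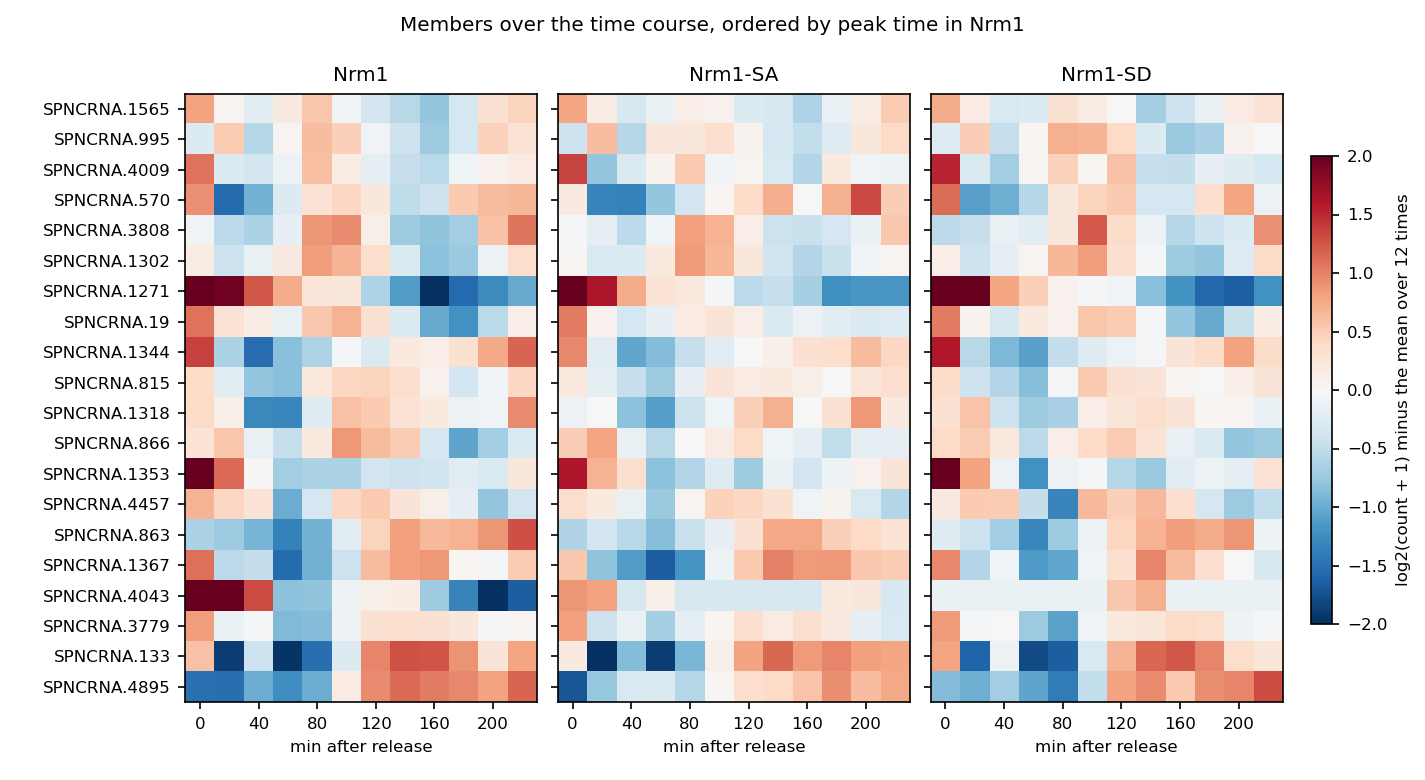
Members (rows, ordered by fitted peak time in Nrm1 starting at 90 min) over the 12 time points (x axis, min after release) in each strain. Colour gives the mean log2(normalised count + 1) of the 2 libraries minus the mean over the 12 times, and values beyond 2 in either direction take the end colours. In Nrm1, 12 of the 20 rows have their highest value of the first 6 time points at 0 min.

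The members near each limit of the rule were close to it. Just inside the limit on the wave lay SPNCRNA.995 (1.01), SPNCRNA.3779 (1.02) and SPNCRNA.4009 (1.02), and just outside SPNCRNA.1276 (0.998), SPNCRNA.4842 (0.966) and SPNCRNA.1294 (0.961). Just inside the limit on the mean lay SPNCRNA.4009 (35.3 normalised counts), SPNCRNA.3808 (35.9) and SPNCRNA.4895 (36.9), and just outside SPNCRNA.1611 (29.2), SPNCRNA.996 (28.8) and SPNCRNA.1317 (28.1). The earliest late peaks were those of SPNCRNA.1565 (91.0 min), SPNCRNA.995 (91.7 min) and SPNCRNA.4009 (93.6 min), whereas SPNCRNA.1432 (88.7 min), SPNCRNA.1533 (87.9 min) and SPNCRNA.7087 (87.0 min) were left out. On the other side, SPNCRNA.4895 (14.5 min), SPNCRNA.133 (13.3 min) and SPNCRNA.3779 (11.8 min) were the latest kept, and SPNCRNA.1644 (36.9 min), SPNCRNA.6712 (38.9 min) and SPNCRNA.4391 (40.9 min) the first left out. Membership depended on the settings of the rule: 3 of the 20 (SPNCRNA.4043, SPNCRNA.1367 and SPNCRNA.1318) were kept under all 9 other settings tried, while SPNCRNA.4009 was kept under 2 of them and SPNCRNA.3779 and SPNCRNA.1565 under 3.

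The time courses fell into several shapes that a single cosine does not tell apart. The first 6 time points (0 to 100 min) were compared with the second 6 (120 to 220 min). The correlation over the 6 pairs of points was at least 0.5 for 12 members in the Nrm1 strain. It was so for 8 of the Nrm1-SA profiles and 7 of the Nrm1-SD profiles. Values above 0 were found for 18, 13 and 14, with the strains in the same order. Because the rule chose members for a wave of 120 min in the Nrm1 course, agreement between its passes is favoured by the choice. The lower counts of the mutants are thus a description and do not show a lost wave. The share among other noncoding RNAs was not tested. In Nrm1, 12 members had their highest level of the first 6 points at 0 min, the end of the block at 36 °C, and 11 did in each mutant. The 11 include SPNCRNA.4043, whose highest mean over these points was 1.31 normalised counts in Nrm1-SA. In Nrm1-SD it had 0 at all 6 points, so its place among the 11 is a tie. Leaving 0 min out of the fit kept 13 of the 20 and brought in 16 others.

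SPNCRNA.1302, antisense to the enolase gene, was highest at 80 or 100 min in each strain. In Nrm1 it had 339 and 384 normalised counts at 80 min, 103 and 126 at 160 min, and 254.5 and 260.4 at 220 min. In Nrm1-SA the 80 min libraries held 380 and 408 and the 160 min libraries 154 and 136, and in Nrm1-SD the highest pair, 404 and 402, came at 100 min and the lowest, 119 and 142, at 180 min. At 220 min it was again above the low times, at 249.6 and 205.0 in Nrm1-SA and 301.7 and 281.1 in Nrm1-SD, below the first high pair. The first and second passes correlated at 0.461, 0.546 and 0.407 over 6 pairs of points (Nrm1, Nrm1-SA, Nrm1-SD). The wave passed the test in both mutants, with a peak-to-trough difference of 1.14 ± 0.19 (SE) peaking at 90.6 min in Nrm1-SA (adjusted p = 8.07e-06, limma) and 1.15 ± 0.17 peaking at 98.8 min in Nrm1-SD (adjusted p = 4.32e-07).

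SPNCRNA.3808, antisense to *hta2*, was high at 80 and 100 min and again at 220 min. In Nrm1 its libraries held 62.1 and 59.8 normalised counts at 80 min, 66.3 and 61.1 at 100 min, 23.4 and 14.3 at 160 min, and 84.5 and 57.5 at 220 min. In Nrm1-SD it reached 66.2 and 91.1 at 100 min and 37.7 and 101 at 220 min, the last pair being discordant. The wave passed the test in Nrm1-SA (1.14 ± 0.27 (SE), peak at 94.6 min, adjusted p = 0.00153, limma) and in Nrm1-SD (1.08 ± 0.25, peak at 101 min, adjusted p = 0.000773). The Nrm1-SD wave was no longer called without 220 min, where it fitted at 0.969 (adjusted p = 0.005), nor without Nrm1-SD replicate 1 (0.894, adjusted p = 0.0916), and the Nrm1-SA wave was lost without Nrm1-SA replicate 1 (adjusted p = 0.247). The histone H2A gene on the other strand peaked at 90.5 min in the Nrm1 strain, at 91.7 min in Nrm1-SA and at 96.0 min in Nrm1-SD, and in Nrm1 it went from 601 and 627 normalised counts at 0 min to 6207 and 6155 at 100 min. SPNCRNA.3808 and *hta2*, which share 242 bases, had a correlation of 0.852, 0.731 and 0.855 over the 12 time points of the 3 strains. With *rsd1*, which it overlaps by 996 bases, the values were 0.127, 0.044 and -0.177. The share of *hta2* reads counted on the wrong strand was not tested.

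The neighbouring SPNCRNA.133 and SPNCRNA.1367, at the *fhn1* locus, were low at 20 and 60 min and high between 120 and 160 min. SPNCRNA.133 was the most abundant member, with 1123 and 1131 normalised counts at 0 min in Nrm1, 208 and 196 at 20 min, 192 and 194 at 60 min, and 1976 and 1696 at 140 min. In Nrm1-SA it had 258 and 326 at 20 min and 2615 and 2546 at 140 min, and in Nrm1-SD 206 and 308 at 20 min and 1672 and 1740 at 140 min. It stayed high in Nrm1-SA, at 2038 and 2597 at 180 min and 1872 and 2152 at 220 min. Its first and second passes correlated at 0.117, -0.871 and -0.101 (Nrm1, Nrm1-SA, Nrm1-SD). Those of SPNCRNA.1367 correlated at 0.563, -0.584 and -0.0261. A called wave thus does not show that the course repeated. The wave of SPNCRNA.133 passed the test in Nrm1-SA at 1.23 ± 0.45 (SE; adjusted p = 0.0969, limma) and in Nrm1-SD at 1.80 ± 0.45 (adjusted p = 0.00435). The Nrm1-SA call was lost with no filter on low features (adjusted p = 0.146), without 0 min (adjusted p = 0.112), with a period of 110 min (adjusted p = 0.462) and without Nrm1-SA replicate 1 or replicate 2 (adjusted p = 0.469 and 0.346). SPNCRNA.1367 had 9.73 and 15.7 normalised counts at 60 min in Nrm1 and 90.3 and 50.9 at 140 min, and its wave passed at 1.51 ± 0.35 in Nrm1-SA (adjusted p = 0.0039) and 1.37 ± 0.34 in Nrm1-SD (adjusted p = 0.00452), calls lost without Nrm1-SA replicate 2 (adjusted p = 0.161) and without Nrm1-SD replicate 1 (adjusted p = 0.252). Over the 12 time points, the correlation of SPNCRNA.133 with *fhn1*, which contains it, was 0.993, 0.99 and 0.983 in the 3 strains (Nrm1, Nrm1-SA, Nrm1-SD), that of SPNCRNA.1367 with *fhn1* 0.919, 0.947 and 0.909, and that of the 2 members with each other 0.891, 0.929 and 0.923. These points share their libraries, and reads of *fhn1* and SPNCRNA.133 lie on the same strand and cannot be told apart by it.

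Several members differed between 0 and 120 min, as counted further below, and 3 of them are described here. SPNCRNA.1271, antisense to the kinase gene *ckk2*, was highest at 0 min and returned little: in Nrm1 it had 305 and 268 normalised counts at 0 min, 74.0 and 72.3 at 40 min, and 5.60 and 8.02 at 160 min. In Nrm1-SA it had 127 and 137 at 0 min and in Nrm1-SD 298 and 269. At 120 min it was lower than at 0 min by a log2 difference of -2.89 ± 0.42 (SE) in Nrm1-SA (adjusted p = 9.37e-08, limma) and -3.19 ± 0.42 in Nrm1-SD (adjusted p = 7.19e-09). SPNCRNA.1353, antisense to the THO complex gene *tho4*, went from 164 and 149 at 0 min to 21.0 and 17.5 at 60 min in Nrm1, and was also lower at 120 than at 0 min in both mutants (-2.32 ± 0.31 and -2.78 ± 0.31, adjusted p = 1.69e-08 and 1.06e-10). SPNCRNA.4895, antisense to the transcription factor gene SPBC530.11c, went the other way, from 6.82 and 10.5 at 0 min to 48.0 and 53.2 at 120 min in Nrm1, and was higher at 120 min by 2.05 ± 0.37 in Nrm1-SA (adjusted p = 6.55e-06) and 1.68 ± 0.37 in Nrm1-SD (adjusted p = 0.000123). Whether a slope or a step after the block is read as a wave of 120 min is set by the fit, and the 3 were not kept under 4 or 5 of the 9 other settings of the rule.

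**Figure D2:**
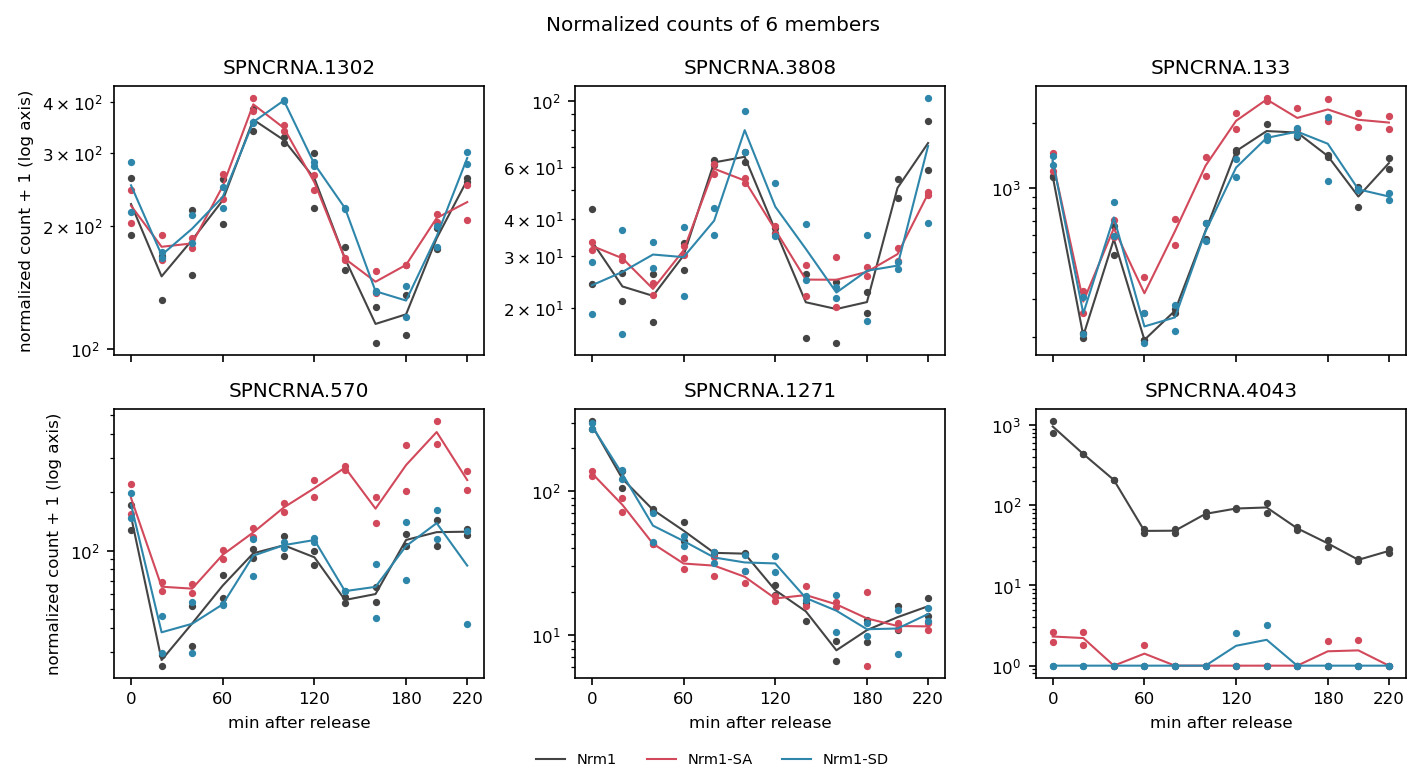
Normalised counts plus 1 (log axis) of 6 members against min after release. Points are libraries and lines the mean of the 2 libraries of a strain. SPNCRNA.1302 is highest at 80 or 100 min in each strain, SPNCRNA.1271 is highest at 0 min, and SPNCRNA.4043 is at 0 in most libraries of both mutants.

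SPNCRNA.570, whose window holds a match to the Atf1 element, dipped after release and returned. In Nrm1 it had 126 and 172 normalised counts at 0 min, 24.5 and 28.0 at 20 min, 92.7 and 118 at 100 min, 53.2 and 64.1 at 160 min, and 120 and 129 at 220 min. In Nrm1-SA it was at 60.6 and 67.7 at 20 min, 273 and 260 at 140 min and 463 and 352 at 200 min, all above the Nrm1 pair of the same time. Its wave passed the test in Nrm1-SD (1.25 ± 0.34 (SE), peak at 98.1 min, adjusted p = 0.00494, limma) but not in Nrm1-SA (0.74 ± 0.35, adjusted p = 0.17). The Nrm1-SD wave was no longer called without 0 min (0.939, adjusted p = 0.0094) or without Nrm1-SD replicate 1 (0.865, adjusted p = 0.365). SPNCRNA.1344, which also has that match, had 176 and 177 at 0 min and 21.7 and 24.1 at 40 min in Nrm1, and did not pass in either mutant (0.79 ± 0.39 and 0.88 ± 0.38, adjusted p = 0.234 and 0.119). SPNCRNA.995, the third with the match, had 207 and 209 at 80 min and 76.6 and 86.4 at 160 min in Nrm1. In Nrm1-SD the same times gave 233 and 232, and 90.6 and 77.5.

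The remaining members are given by a high and a low time. SPNCRNA.866, the longest, had 97.2 and 107 normalised counts at 100 min and 24.1 and 28.7 at 180 min in Nrm1, and SPNCRNA.19 had 69.2 and 92.8 at 0 min and 16.6 and 14.4 at 180 min. SPNCRNA.815 had 83.9 and 81.2 at 60 min and 205.6 and 197 at 120 min in Nrm1. SPNCRNA.1565 had 90.2 and 103 at 0 min and 30.8 and 32.1 at 160 min. SPNCRNA.4009, antisense to the aldehyde dehydrogenase gene *atd1*, had 71.3 and 59.5 at 0 min and 20.6 and 20.49 at 160 min. SPNCRNA.3779, antisense to *pfl2*, had 110.1 and 156 at 0 min and 40.5 and 38.6 at 80 min. In each of these members both libraries of the high time lay above both of the low time. The times were picked from the course that chose the members, so this gap is favoured by the choice. SPNCRNA.4457, antisense to SPAC1039.02, a phosphatase gene, had 24.0 and 17.5 at 60 min and 65.1 and 56.9 at 120 min. SPNCRNA.863 climbed from 195 and 206 at 60 min to 1220 and 1285 at 220 min in Nrm1, whereas its Nrm1-SD libraries at 220 min disagreed, at 972 and 181.

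Nearly all fitted peaks of the mutants lay outside 30 to 90 min, and most members had a smaller wave than in Nrm1. The fitted peak stayed outside 30 to 90 min for 19 of 20 members in Nrm1-SA (all but SPNCRNA.4895, at 39.5 min) and for all 20 in Nrm1-SD, and lay within 10 min of the Nrm1 peak for 16 and 17, with a median shift of 1.44 and 4.61 min later. The median peak-to-trough difference was 0.742 ± 0.031 (SD of the 2 culture medians, n = 2) in Nrm1-SA and 1.05 ± 0.000707 in Nrm1-SD, against 1.17 ± 0.00212 in Nrm1. The wave was smaller than in Nrm1 for 20 of 20 members in Nrm1-SA and 17 of 20 in Nrm1-SD, with a median of 61.2% and 87.9% of the Nrm1 value. Since the members were selected for a large value in Nrm1, smaller values elsewhere are favoured by the choice, and this is a description. The 100 noncoding RNAs that peaked at 30 to 90 min were selected on the same value. They were smaller in 92 and 72 cases, with medians of 71.5% and 92.9%. A fit gives a peak time even where no wave is shown, and the test below called 4 members for Nrm1-SA, 11 for Nrm1-SD. The member counts also include SPNCRNA.4043, which had 9 reads over all Nrm1-SA libraries and 3 over those of Nrm1-SD. Its Nrm1-SA cultures, fitted alone, peaked at 64.3 and 0.176 min. Its Nrm1-SD cultures had peak-to-trough differences of 0.0 and 1.12.

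Within each mutant the wave was tested across all 7431 features with a mean of at least 10, and called where the adjusted p was under 0.1 and the peak-to-trough difference at least 1. In Nrm1-SA, 4 of 20 members were called (SPNCRNA.1302, SPNCRNA.133, SPNCRNA.1367 and SPNCRNA.3808), where 3.84% of all features and 4.59% of the 1068 noncoding RNAs were called. In Nrm1-SD, 11 were called, where the shares were 7.75% and 10.3%. All of these peaked outside 30 to 90 min, as did 1.26% of all features in Nrm1-SA and, with Nrm1-SD, 2.91%. The 11 in Nrm1-SD were the same 4 together with SPNCRNA.4457 (1.49 ± 0.24 (SE), adjusted p = 7.5e-06, limma), SPNCRNA.570, SPNCRNA.19 (1.21 ± 0.17, adjusted p = 3.96e-08), SPNCRNA.4895, SPNCRNA.1353, SPNCRNA.3779 and SPNCRNA.4009. The member medians of 0.767 and 1.00 in these fits stood beside 0.306 and 0.364 over all features. Without 220 min, 6 members were called in Nrm1-SA, the 4 among them. In Nrm1-SD 14 were called without 220 min, 9 of the 11 among them: SPNCRNA.3808 and SPNCRNA.1353 (0.86, adjusted p = 0.246) were lost and 5 others gained. With a period of 110 min, 0 of the 4 remained in Nrm1-SA, where the 1 member called was SPNCRNA.4009, and 6 of the 11 remained among 7 called in Nrm1-SD. SPNCRNA.1353, SPNCRNA.570, SPNCRNA.3779 and SPNCRNA.4009 were not called in Nrm1-SD without 0 min.

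The mutants were compared directly, since neither had been used for the amplitude or phase of the members, although both entered the mean. No wave differed between Nrm1-SD and Nrm1-SA by the limma test (0 members, and 0.0% of all features, 0.0% larger and 0.0% smaller in Nrm1-SD), and edgeR also called 0 members. At an unadjusted p under 0.05 there were 3, SPNCRNA.4457, SPNCRNA.4895 and SPNCRNA.19, all with a larger wave in Nrm1-SD, by 0.90, 0.66 and 0.61. A wave called in Nrm1-SD and not in Nrm1-SA was thus not shown to differ between them.

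**Figure D3:**
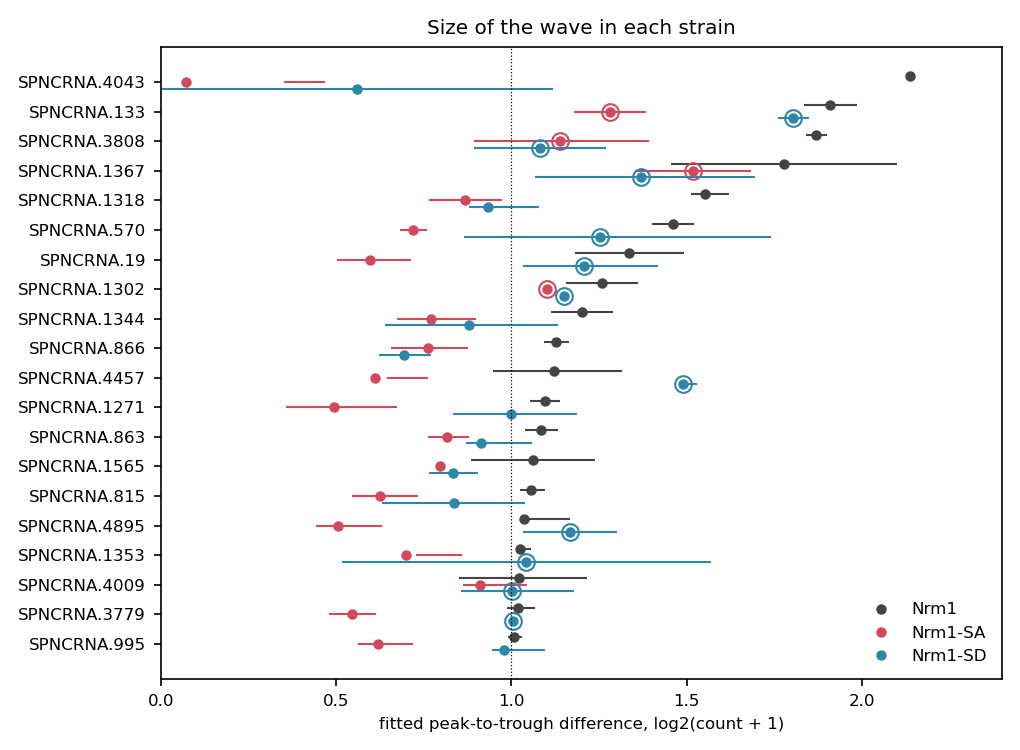
Fitted peak-to-trough difference (x axis, log2 of normalised count plus 1) of each member in each strain. Points are fits to the mean of the 2 replicates, horizontal lines join the fits to each culture alone, rings mark waves called in a mutant (4 in Nrm1-SA, 11 in Nrm1-SD), and the dotted line is the limit of 1 used to choose members in Nrm1.

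A window contrast leaves out the heat block: the mean of 120 and 140 min, between the G1/S windows, minus the mean of 60, 80, 180 and 200 min. In Nrm1-SA, 8 members were higher between the windows, where 15.6% of all features were, and 0 were lower, where 14.7% were. All 8 had an unadjusted p under 0.05 and no other member did, and edgeR called 8 and 0. In Nrm1-SD, 12 were higher (23.2% of all features) and 1 lower (23.1%), the latter SPNCRNA.1565 (-0.34 ± 0.14 (SE), adjusted p = 0.0457, limma). The median member difference was 0.172 in Nrm1-SA and 0.502 in Nrm1-SD, against 0.00551 and -0.00281 over all features. SPNCRNA.133 had the largest difference in both, 1.23 ± 0.15 (adjusted p = 1.75e-09) and 1.45 ± 0.13 (adjusted p = 5.27e-14), followed in Nrm1-SD by SPNCRNA.4457 (1.28 ± 0.17, adjusted p = 1.31e-08) and SPNCRNA.1367 (1.10 ± 0.19, adjusted p = 3.36e-06). SPNCRNA.4043 was among the 12 on 3 reads, and 11 were called without it. In Nrm1-SA the count was 3 without replicate 1. SPNCRNA.1302, whose wave peaked near 90 min, had a negative value in Nrm1-SA (-0.22 ± 0.12, adjusted p = 0.204) and did not pass in this contrast. Its highest pair in Nrm1-SA came at 80 min, one of the times that are subtracted. The contrast did not differ between the mutants for any member (0 higher and 0 lower by limma and by edgeR, where 0.767% and 1.47% of all features were), and 5 members had an unadjusted p under 0.05.

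The end of the block was compared with asynchronous growth in each mutant, since 12 members had their first high level there in Nrm1. At 0 min, 8 members were higher and 5 lower than in asynchronous Nrm1-SA cultures, where 26.4% and 29.2% of all features were, and 8 were higher and 6 lower in Nrm1-SD, where 30.8% and 28.9% were. SPNCRNA.1271 rose most, by a log2 difference of 3.65 ± 0.42 (SE; adjusted p = 2.36e-10, limma) in Nrm1-SA and 4.50 ± 0.42 (adjusted p = 3.36e-13) in Nrm1-SD, from 14.8 and 6.07 normalised counts to 127 and 137 and from 6.52 and 19.9 to 298 and 269. SPNCRNA.19 rose by 1.34 ± 0.25 and 1.66 ± 0.25, and SPNCRNA.1302 by 0.96 ± 0.17 and 1.57 ± 0.17 (all adjusted p at most 1.73e-05). SPNCRNA.4895 fell by 2.03 ± 0.37 and 1.93 ± 0.37 on the log2 scale, SPNCRNA.1318 by 1.32 ± 0.23 and 0.90 ± 0.23, and SPNCRNA.133 by 1.17 ± 0.20 and 1.25 ± 0.20. The members thus moved in both directions at the block. Among the 1068 noncoding RNAs, 40.3% were higher and 16.8% lower in Nrm1-SA, and 40.9% and 22.3% in Nrm1-SD. The call of SPNCRNA.4043 in Nrm1-SA rested on 3 reads, and 7 were higher without it. Of the 14 heat shock and stress genes tested, 7 were higher and 5 lower at 0 min in Nrm1-SA, and 11 and 2 in Nrm1-SD, including the chaperone genes *hsp90* (1.06 ± 0.10 and 1.31 ± 0.10) and *sti1* (1.42 ± 0.10 and 1.73 ± 0.10). Lower in both were *ctt1*, the catalase gene (-1.87 ± 0.17 and -1.71 ± 0.17), and *hsp9* (-2.54 ± 0.23 and -2.15 ± 0.23). The part of the temperature in the members' levels at 0 min was not tested.

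Levels at 120 min, 1 period after the release, were compared with those at 0 min. At 120 min, 5 members were higher and 7 lower than at 0 min in Nrm1-SA, where 26.6% and 25.6% of all features were, and 4 were higher and 8 lower in Nrm1-SD, where 27.9% and 30.8% were. The lower ones in both mutants included SPNCRNA.1271, SPNCRNA.1353, SPNCRNA.1344 (-0.96 ± 0.29 (SE) and -1.72 ± 0.29, adjusted p = 0.00614 and 2.13e-06, limma), SPNCRNA.4009, SPNCRNA.1565 and SPNCRNA.19. Those higher in both were SPNCRNA.4895, SPNCRNA.863 and SPNCRNA.995. In Nrm1-SA, 6 were lower without SPNCRNA.4043, and leaving out a replicate brought the 5 higher to 1 or 3. In Nrm1-SD, leaving out a replicate brought the 8 lower to 5 or 6.

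Asynchronous cultures gave the comparison of each mutant with Nrm1 in libraries that did not set amplitude or phase. In Nrm1-SA, 2 members were higher (SPNCRNA.1271 and SPNCRNA.1302) and 1 lower (SPNCRNA.4043), where 8.75% and 5.07% of all features were. In Nrm1-SD, the same 2 were higher and 2 were lower (SPNCRNA.1318 and SPNCRNA.4043), where 1.55% and 0.848% of all features were. SPNCRNA.4043 met the mean of 30 only through its Nrm1 libraries, so its lower level in the mutants is favoured by the choice and is a description, and without it 0 and 1 were lower. The other 17 and 16 did not pass the test, which does not show that they were equal.

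SPNCRNA.1302 had 56.4 and 37.4 normalised counts in asynchronous Nrm1, 97.5 and 133 in Nrm1-SA, and 70.8 and 96.1 in Nrm1-SD. Both libraries of each mutant lay above both of Nrm1. The log2 difference was 1.29 ± 0.17 (SE; adjusted p = 2.99e-07, limma), or 2.44-fold, in Nrm1-SA and 0.83 ± 0.17 (adjusted p = 0.00257), or 1.78-fold, in Nrm1-SD. In Nrm1-SD the call was lost with edgeR (adjusted p = 0.604), with DESeq2 (adjusted p = 1.0), without Nrm1 replicate 2 (adjusted p = 0.215) and without Nrm1-SD replicate 2 (adjusted p = 0.297). The *eno102* gene on its other strand moved with it, from 268 and 108 in Nrm1 to 489 and 721 in Nrm1-SA (1.80 ± 0.34, adjusted p = 0.000181) and 308 and 613 in Nrm1-SD (1.35 ± 0.34, adjusted p = 0.0207). The part of *eno102* reads in the level of SPNCRNA.1302 was not tested. At 0 min against asynchronous growth, *eno102* fell in both mutants (-3.93 ± 0.34 and -2.74 ± 0.34, adjusted p = 5.92e-14 and 2.1e-09).

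SPNCRNA.1318 had 210 and 168 normalised counts in asynchronous Nrm1, 217 and 196 in Nrm1-SA, and 77.3 and 77.8 in Nrm1-SD. Nrm1-SD stood below the other strains in each library. The log2 difference from Nrm1 was -1.27 ± 0.23 (SE; adjusted p = 0.000368, limma) in Nrm1-SD and 0.13 ± 0.23 (adjusted p = 0.785) in Nrm1-SA, and edgeR and DESeq2 also called the decrease in Nrm1-SD (adjusted p = 2.07e-05 and 8.98e-05). Over the release its Nrm1-SD level was also low, at 40.9 and 32.1 at 100 min and 26.2 and 34.2 at 220 min against 98.0 and 99.2, and 129 and 126, in Nrm1. The maltase gene *mal1* on the other strand was higher in asynchronous Nrm1-SD, at 326 and 368 against 151 and 147 in Nrm1 (1.21 ± 0.12, adjusted p = 8.34e-11), and at 142 and 140 in Nrm1-SA did not pass (-0.08 ± 0.12, adjusted p = 0.736). The neighbouring *ght4*, which SPNCRNA.1318 also overlaps, did not pass in either mutant (adjusted p = 0.987 and 0.883).

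SPNCRNA.1271 had 2.57 and 0.0 normalised counts in asynchronous Nrm1, 14.8 and 6.07 in Nrm1-SA, and 6.52 and 19.9 in Nrm1-SD. The mutant libraries all lay above those of Nrm1, at levels set by few reads. The log2 difference was 2.49 ± 0.42 (SE; adjusted p = 1.98e-05, limma) and 2.73 ± 0.42 (adjusted p = 9.34e-06) on a scale with a pseudocount of 1. With edgeR the adjusted p was 0.0513 in Nrm1-SA and 0.215 in Nrm1-SD, without Nrm1 replicate 2 limma gave 0.11 in Nrm1-SA, and DESeq2 gave 1.0 in Nrm1-SD and no adjusted p in Nrm1-SA. The kinase gene *ckk2* on the other strand did not pass in either mutant (0.16 ± 0.11 and 0.18 ± 0.11, adjusted p = 0.392 and 0.609).

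**Figure D4:**
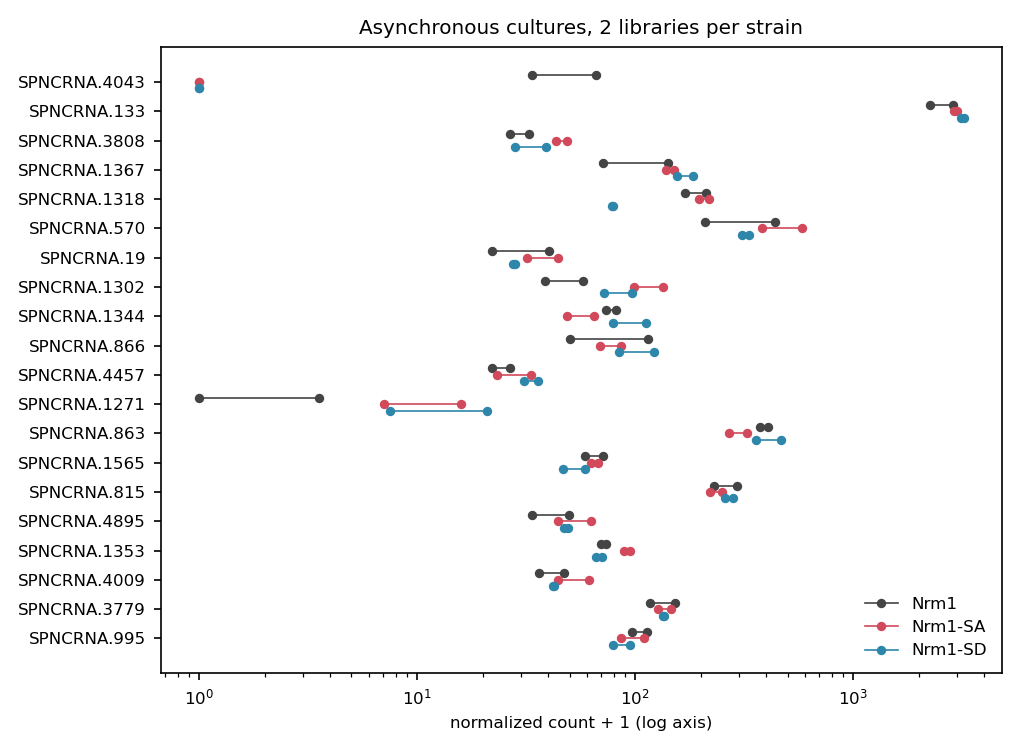
Normalised counts plus 1 (log axis) of the members in asynchronous cultures. Points are libraries and lines join the 2 libraries of a strain. Both Nrm1-SD libraries of SPNCRNA.1318 lie at 77.3 and 77.8, below those of the other strains, and SPNCRNA.4043 is at 0 in all 4 mutant libraries.

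SPNCRNA.4043 was present in all 26 Nrm1 libraries and nearly absent from both mutants. It had 803 and 1112 normalised counts at 0 min in Nrm1, 49.4 and 44.3 at 60 min, 107 and 78.8 at 140 min, 20.4 and 19.4 at 200 min, and 65.0 and 32.8 in asynchronous cultures. Over all libraries of a strain, 4944 reads were counted in Nrm1, 9 in Nrm1-SA (19 of 26 libraries at 0) and 3 in Nrm1-SD (24 of 26 at 0). With a floor of 3 reads over the group, it was at least 31.4-fold lower in asynchronous Nrm1-SA, at least 25.2-fold lower in asynchronous Nrm1-SD and at least 527-fold lower in Nrm1-SD at 0 min, where Nrm1 had a mean of 957. Since only the Nrm1 reads carried it past the mean of 30, this difference is a description with no test. Its antisense RNA SPNCRNA.4044 had 176 reads in Nrm1 and 0 in both mutants. Of the annotated copies, SPAC27D7.09c ran from 62.3 to 1411 normalised counts in Nrm1, 71.0 to 706 in Nrm1-SA and 55.2 to 1035 in Nrm1-SD, and SPAC27D7.11c was at 899 or more in every library. In Nrm1 its time course correlated at 0.902 with that of SPAC27D7.09c and 0.613 with that of SPAC27D7.11c over the 12 time points. Because nearly all of its 75-base stretches occur elsewhere, the sequence of a single read does not tell the locus over most of its length. In the mutants, both copies had reads in every library, and SPNCRNA.4043 had 9 and 3 reads over all libraries. The share of reads from the copies in the Nrm1 counts of SPNCRNA.4043 was not tested. The longest identical run in its alignment with the copy at SPAC27D7.09c was 1134 bases, outside the stretch shown above. The genotype of this locus in the 3 strains is not given in the sources used here.

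The members were then set beside the coding gene on their other strand. For 13 members with a measured partner, taking the gene with the longest overlap, the correlation over the 12 time points was above 0 for 7 in Nrm1 and 6 in each mutant, and ran from -0.906 to 0.977 in Nrm1, from -0.76 to 0.91 in Nrm1-SA and from -0.749 to 0.947 in Nrm1-SD. Among 849 other noncoding RNAs with such a partner, 50.3%, 51.7% and 48.4% were above 0. The points of a strain share their libraries and the scaling of those libraries, so these are descriptions.

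Pairs that moved together in all 3 strains included SPNCRNA.3779 with the cell surface gene *pfl2* (0.977, 0.91 and 0.947), SPNCRNA.4457 with SPAC1039.02 (0.866, 0.845 and 0.874) and SPNCRNA.1344 with SPBC1271.08c (0.789, 0.811 and 0.805). In Nrm1 *pfl2* went from 1884 and 1707 normalised counts at 60 min to 4738 and 5172 at 140 min, and SPNCRNA.3779 from 33.0 and 47.1 to 77.3 and 110. SPAC1039.02 went from 993 and 922 at 60 min to 5553 and 5274 at 120 min, and SPNCRNA.4457 from 24.0 and 17.5 to 65.1 and 56.9. Per kilobase of the annotated transcripts, the mean level of SPNCRNA.3779 was 2.74% of that of *pfl2*, that of SPNCRNA.4457 1.25% of that of SPAC1039.02, and that of SPNCRNA.4009 1.57% of that of *atd1*. At such levels a small share of reads counted on the wrong strand would give the same time course, and that share was not tested. SPNCRNA.1344 stood at 55.8% of its partner.

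Pairs that moved apart included SPNCRNA.4895 with SPBC530.11c (-0.87, -0.671 and -0.684), SPNCRNA.1353 with *tho4* (-0.906, -0.565 and -0.743) and SPNCRNA.1318 with *mal1* (-0.658, -0.76 and -0.749). With *ght4*, which it overlaps by 871 bases, SPNCRNA.1318 had correlations of 0.664, 0.825 and -0.0662. In the pair with *mal1*, *mal1* in Nrm1-SD went from 225 and 234 normalised counts at 0 min to 658 and 557 at 60 min while SPNCRNA.1318 went from 38.7 and 43.5 to 18.9 and 20.8, and in Nrm1 *mal1* went from 133 and 96.3 to 146 and 184. SPNCRNA.1302 and *eno102* had correlations near 0 or below (0.188, -0.381 and 0.082). Some members outweighed their partner: per kilobase SPNCRNA.1302 was at 266% of *eno102*, SPNCRNA.815 at 587% of *mug68* and SPNCRNA.570 at 2010% of SPBC3D6.16.

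**Figure D5:**
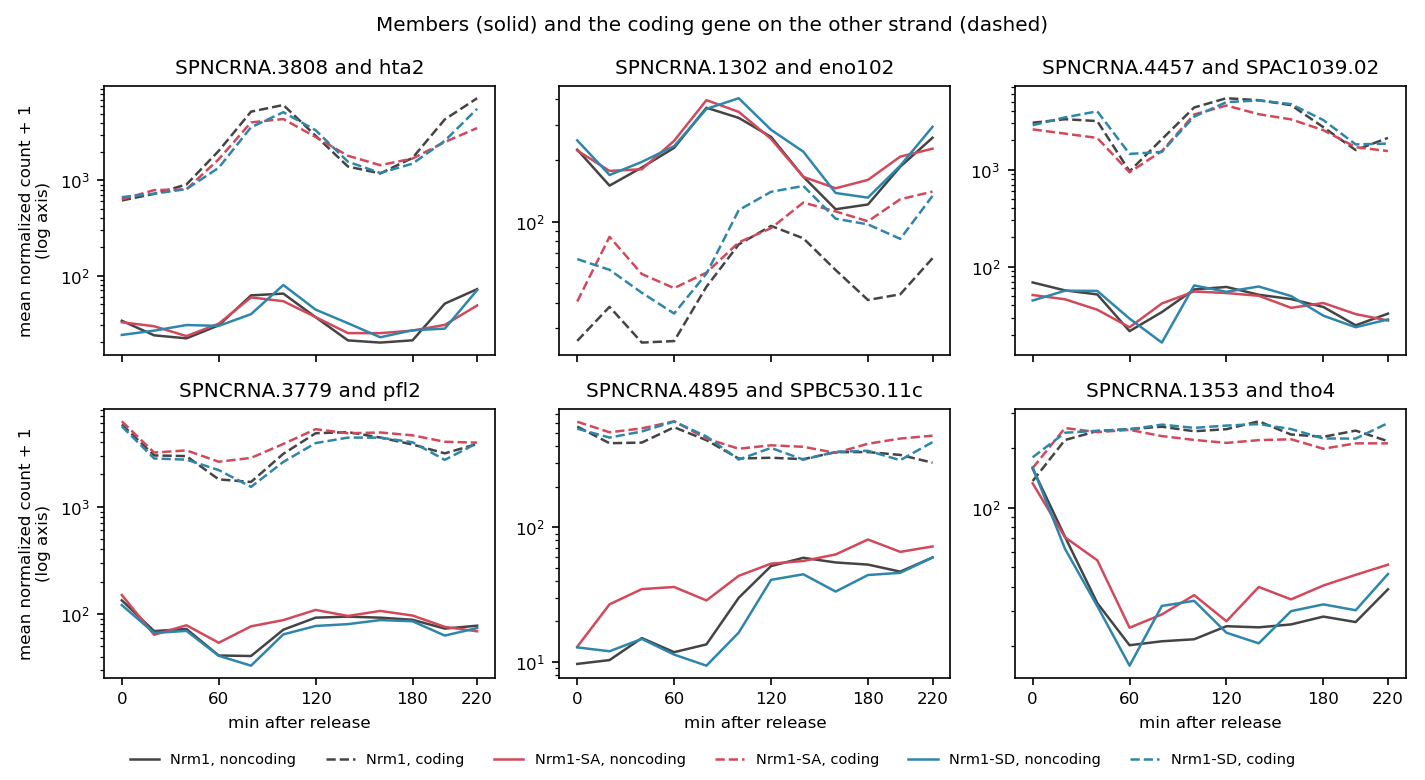
Mean normalised count plus 1 (log axis) of 6 members (solid lines) and of the coding gene on the other strand (dashed lines) against min after release, coloured by strain. SPNCRNA.3808 and *hta2*, SPNCRNA.4457 and SPAC1039.02, and SPNCRNA.3779 and *pfl2* run in parallel, whereas SPNCRNA.4895 and SPNCRNA.1353 run opposite to their partners.

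Genes whose products degrade or silence noncoding RNAs were examined beside the members. Of 24 such genes, 0 were higher and 3 lower in asynchronous Nrm1-SA than in Nrm1: the exosome helicase genes *mtr4* (-0.33 ± 0.10 (SE), adjusted p = 0.0254, limma) and *mtl1* (-0.24 ± 0.09, adjusted p = 0.0857) and the exosome nuclease gene *dis3* (-0.22 ± 0.08, adjusted p = 0.0768). In asynchronous Nrm1-SD, 0 were higher and 0 lower. Of all features, 8.75% were higher and 5.07% lower in asynchronous Nrm1-SA, and 1.55% and 0.848% in Nrm1-SD. The list's median log2 difference was -0.0711 and -0.0387, beside 0.0317 and 0.00556 over all features. Between the G1/S windows, 3 of the 24 were higher and 3 lower in Nrm1-SA, where 15.6% and 14.7% of all features were. In Nrm1-SD, 8 were higher and 3 lower, where 23.2% and 23.1% of all features were. Among them *cid14*, the poly(A) polymerase of the TRAMP complex, was higher in both (0.44 ± 0.06 and 0.60 ± 0.05, adjusted p = 1.44e-07 and 1.26e-13, limma). The part of the 24 genes in the levels of the members was not tested.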

How the data were processed

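Polyadenylated RNA of 78 libraries was sequenced by the authors, who checked and trimmed reads (FastQC, Trimmomatic), aligned them with STAR, counted them per feature with HTSeq and normalised them with DESeq2. The submitters' processing notes name the build ASM294v2. The deposited table holds normalised counts, a signal equal to reads divided by a library size factor. All values (100%) came out as whole reads within 0.01 after multiplication by a factor per library, and the recovered reads gave the depths and the edgeR and DESeq2 alternatives.

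The members, gene lists and tests were chosen with earlier results of these data known. Tests were made in limma 3.58.1 (R 4.3.3) on log2(normalised count + 1), with a mean-variance trend, over the 7431 features whose mean was 10 or more. Adjusted p-values (Benjamini-Hochberg, over all of these features) were held to a threshold of 0.1. A fold change on this scale understates the change of low features. Each strain's wave was an intercept, a slope in time and a cosine and sine of 120 min period. The other contrasts used 39 condition means. p-values rest on 2 cultures per condition. In the wave test, release libraries were taken as independent, with no term for the culture or for neighbouring times. Those p-values measure the scatter of libraries about the fitted wave and not the spread between cultures alone. Alternatives were edgeR 4.0.16, DESeq2 1.42.0, other pseudocounts, filters, periods and time points, a replicate block, and leaving out each replicate.

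Members with the largest waves, those next to a limit of the rule and those called between asynchronous cultures were named by a fixed rule. Values of SPNCRNA.815, SPNCRNA.863 and SPNCRNA.1353 were added after they were seen. Positions and sequences are from RefSeq, ASM294v3, which matched 12602 of 12683 IDs. Copies were searched with BLAST 2.17.0 (at least 150 bases at 90% identity or more). Scripts were tested on simulated data. One of the elements searched for is not reported here.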

Additional observations from a re-analysis of the deposited data

How the results depend on the processing

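Membership moved with the rule: 13 RNAs qualified with a pseudocount of 5, 13 when the mean had to reach 50, 13 when the period was 130 min, 35 without the 0 and 20 min time points and 35 without the linear time term. Members called for a wave with a period of 110 min numbered 1 for Nrm1-SA and 7 for Nrm1-SD, and with a pseudocount of 5 there were 6 for Nrm1-SD. With all libraries counted separately, 2 were lower in the window contrast of Nrm1-SA (SPNCRNA.1565 and SPNCRNA.995) and 2 higher in that of Nrm1-SD against Nrm1-SA (SPNCRNA.1302 and SPNCRNA.4043). With 100 min added to the later window, 0 were lower in Nrm1-SD. Between asynchronous cultures, DESeq2 called 1 higher and 0 lower in Nrm1-SA and 0 higher and 1 lower in Nrm1-SD, and edgeR called 0 higher in Nrm1-SD. Without SPNCRNA.4043, 0 were lower in Nrm1-SA and 1 in Nrm1-SD.

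Leaving out 1 replicate gave 2 waves called in Nrm1-SA whichever was left out. It gave 3 to 6 members higher in the window contrast of Nrm1-SA, 0 to 1 lower in that of Nrm1-SD, 5 higher at the block in Nrm1-SA, 1 to 3 higher at 120 than at 0 min in Nrm1-SA, and 5 to 6 lower in Nrm1-SD. Between asynchronous cultures, 1 to 4 were higher in Nrm1-SA and 1 to 4 in Nrm1-SD. A lone sample was assumed to vary like the other conditions. Over all the alternative settings, with the replicate block described below among them, 147 counts stayed within 1.5 times the main count and 32 did not. The cause of these changes was not tested.

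With the replicate number as a block, each count of members was unchanged, with 4 waves called in Nrm1-SA and 11 in Nrm1-SD. Libraries with the same number did not deviate together between strains. The correlations ran from -0.178 to 0.268, with medians of -0.0209, 0.0595 and 0.0374, so the numbers were not taken to pair the libraries. A block on a number that does not pair the strains cannot take up differences between their cultures. The unchanged counts are thus no check on the cultures. Values of SPNCRNA.4043 in the mutants rested on 9 reads of 167459888 in Nrm1-SA and 3 of 125240276 in Nrm1-SD. In Nrm1 it had 4944 of 164498501. Values of SPNCRNA.1271 in asynchronous Nrm1 rested on 3 and 0 reads.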
